A study of Rattus norvegicus with 6 samples.

Results

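The genes described here encode the subunits of the mitochondrial oxidative phosphorylation system. They were measured in brain capillaries of stroke-prone spontaneously hypertensive rats (SHRSP), an inbred hypertensive rat strain prone to stroke, on 6 Affymetrix RG_U34A arrays. Members were all probe sets (groups of short probes read as 1 value) whose single gene symbol starts with Nduf, Sdh, Uqcr, Cox4 to Cox8 or Atp5, or is Cycs, Cyc1 or Cyct, without the Sdhaf assembly factors. This gave 101 probe sets of 55 genes, out of 8799 probe sets and 4737 named genes on the array. Complex I held 49 probe sets of 27 genes, complex II held 1 of 1 gene, complex III held 7 of 4 genes, complex IV held 27 of 13 genes and complex V held 17 of 10 genes. Cytochrome c had 0, because its probe sets carry several symbols; 8 probe sets with several symbols that fit the prefixes were left out for that reason. The prefixes also took in Ndufaf3 (an assembly factor of complex I), Atp5if1 (an inhibitor of ATP synthase, not a structural subunit) and the pseudogene Cox6c-ps1.

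The rats were 6 weeks old. A pair of drugs acting on the renin-angiotensin system was compared with a control group, with 2 arrays in each of the 3 groups. The ACEI group was given lisinopril, an angiotensin-converting enzyme inhibitor, at 6 mg per kg body weight and day, and the ARB group was given olmesartan, an angiotensin receptor blocker, at 4 mg per kg body weight and day by mouth. The labels also name 1% NaCl without saying which groups received it. The title of the series states the question as the effect of angiotensin II on expression in these microvessels. The labels do not say whether the 2 arrays of a group came from separate animals or pools, so the p-values measure the spread between these arrays, which may be technical. The precision is limited by the number of arrays.

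Oxidative phosphorylation moves electrons from NADH and succinate through complexes I and II to ubiquinone, then through complex III and cytochrome c to complex IV, which reduces oxygen. Complexes I, III and IV pump protons, and complex V (ATP synthase) uses the gradient to make ATP. Most subunits are encoded in the nucleus, and a small set that includes the catalytic core of complex IV is encoded in mitochondrial DNA. Brain capillary endothelium is known for a high mitochondrial content. Several complex IV subunits exist as tissue isoforms: Cox6a1 and Cox8a are the widely expressed forms, Cox6a2 and Cox8b the forms known from heart and skeletal muscle, and Cox4i2 is the isoform best known from lung.

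The arrays did not stand alike before any comparison of groups. On control 2 the ratio of 3′ to 5′ probe sets, a sign of RNA quality, was 7.31 for Gapdh and 3.15 for beta-actin, against 0.93 to 1.59 and 1.04 to 2.05 on the other arrays. The ARB arrays carried 11.3% and 12.2% of all signal in their 10 brightest probe sets, against 2.56% to 5.64% on the other 4. The median intensity of the probe sets for added control transcripts was 7525 and 5387 with ARB, against 1012 to 3274 on the other 4. Endothelial markers were measured on the arrays, but Pecam1, a surface protein of endothelium, read 194 on control 2 and 553 and 317 with ARB, against 5538 on control 1 and 2728 and 5564 with ACEI. Of 18 endothelial probe sets tested, 15 were lower on control 2 than on control 1 (median log2 difference −1.85). With ARB, 16 were lower than with ACEI (median −0.97) and 12 were lower than in the control (median −0.29). Of the markers of other cells, 4 of 4 choroid plexus probe sets were higher with ARB than in the control (median 1.73), with Ttr probe set rc_AA945169_at at 194512 and 217986 against 9794 to 66048. Also against the control, 11 of 12 neuron probe sets were higher with ARB (median 0.96), while 9 of 12 astrocyte (−0.75), 9 of 11 oligodendrocyte (−0.58), 11 of 14 microglia and macrophage (−0.68), 11 of 14 pericyte and smooth muscle (−0.39) and 5 of 5 erythroid and blood probe sets (−2.84) were lower. Against ACEI, ARB was lower for 10 of 12 astrocyte (−1.58), 11 of 11 oligodendrocyte (−1.20), 11 of 14 microglia and macrophage (−0.94) and 4 of 5 erythroid and blood probe sets (−1.44), for 6 of 14 pericyte and smooth muscle (0.10), 3 of 12 neuron (0.27) and 1 of 4 choroid plexus probe sets (1.71). With ACEI against the control, 14 of 18 endothelial (0.49) and 11 of 12 astrocyte probe sets (0.77) were higher. So were 10 of 11 oligodendrocyte (0.64) and 10 of 12 neuron probe sets (0.65). Lower were 5 of 5 erythroid and blood (−1.06) and 8 of 14 pericyte and smooth muscle probe sets (−0.18). Of microglia and macrophage probe sets 7 of 14 were lower (−0.07), and of choroid plexus 2 of 4 (0.07). The part of these differences in the results below was not tested. In such tissue samples fewer cells of a type and less RNA per cell cannot be told apart. Control 1 and ACEI 1 were run on the first day with 1 chip lot, and the other 4 arrays on a later day with another lot.

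Of the 101 member probe sets, 92 (53 genes) were bright enough to pass the filter, which dropped the dimmest 40% of probe sets by mean; the remaining 9 had no test. Those 9 belong to Ndufb11, Ndufb8, Ndufs1, Ndufs4, Ndufs8, Ndufv3, Cox6a2, Cox6c-ps1 and Atp5if1, and only Ndufs1 and Cox6c-ps1 have no other probe set that passed. Of the 92, 5 passed only through the group in which they were highest: Ndufab1 rc_AA891651_at, Ndufaf3 U95162_at and Atp5if1 M35300_f_at through ARB, and Ndufa4l2 AA686870_f_at and AA686870_i_at through ACEI. The mean log2 intensity of these 5 over the other 4 arrays was 7.51 to 8.29, below the lowest mean that passed (8.2884). They had to differ between groups to be tested, so their differences are given as a description. Ndufs1, the largest core subunit of complex I, had intensities of 334.5 and 25.0 in the control, 447 and 297 with ACEI and 88.3 and 119 with ARB. Cox6c-ps1 had 112 and 148, 167 and 17.5, and 336 and 586 in the same order. All intensities below are in this order of groups (control, ACEI, ARB) and on the deposited linear scale, and all differences are on the scale of log2(intensity + 90), which understates differences of dim probe sets.

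The member genes were highest on control 2. The median log2 intensity of the 92 probe sets was 11.20 for control 1, 12.05 for control 2, 11.51 and 11.65 for ACEI and 11.35 and 11.30 for ARB. The same median over all 5244 tested probe sets was 9.83, 9.57, 9.88, 9.68, 10.05 and 10.05. Control 2 held the highest value of 53 of the 92 member probe sets (57.6%, against 20.1% of all tested), and control 1 held the highest value of 1. Members carried 4.92% of all signal on control 2 and 2.74% to 3.73% on the other arrays. The members' median on every treated array lay between those of the 2 control arrays.

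**Figure D1:**
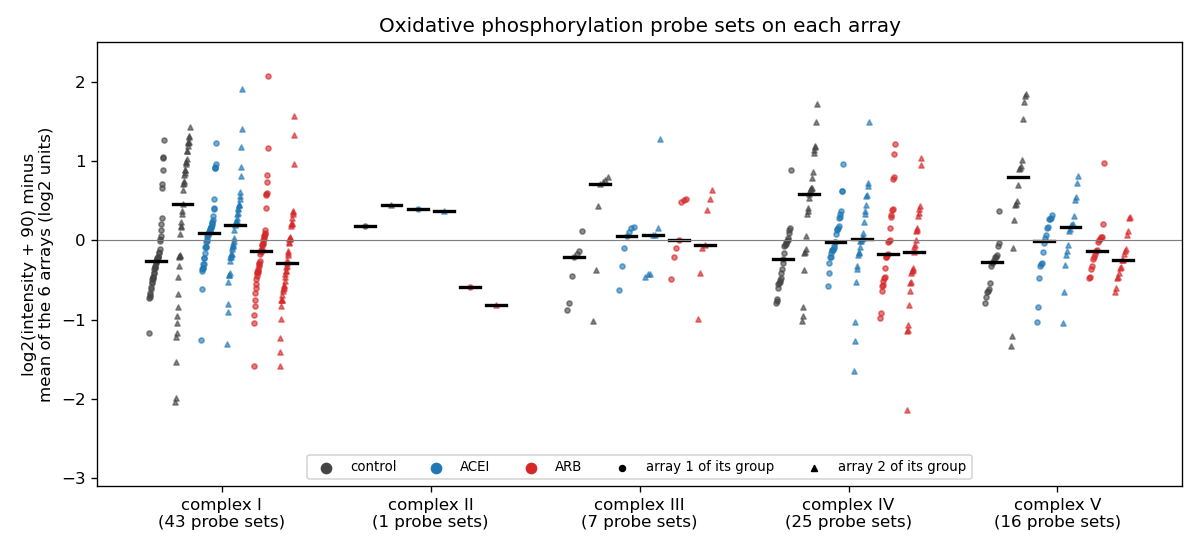
Each point is 1 member probe set on 1 array, as log2(intensity + 90) minus that probe set's mean over the 6 arrays (vertical axis, log2 units), grouped by complex (horizontal axis) and coloured by group; black bars are medians. The median of control 2 lies above that of every other array in each complex, from 0.45 in complex II to 0.80 in complex V, and the single complex II probe set is lowest on both ARB arrays (−0.59 and −0.81).

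The difference between the 2 control arrays was unequal across the complexes. Over members, control 2 exceeded control 1 for 70 of 92 probe sets with a median difference of 0.77, against 50% of all tested probe sets and a median of 0.00. It was over 2-fold higher for 41 members (44.6%, against 13.9% of all tested) and over 2-fold lower for 11 (20.6% of all tested). Complex V had the highest median (1.14, with 14 of 16 higher), and complex III followed (0.98, with 5 of 7 higher). The accessory subunits of complex I, which surround its catalytic core, were higher in 26 of 29 probe sets with a median of 1.18. Ndufa4, Ndufa4l2 and Ndufaf3 were counted in complex I throughout, but neither as accessory nor as core subunits. The core subunits of complex I, which carry electrons, were tested by probe sets of Ndufs7, Ndufs8 and Ndufv2. Of these 5 probe sets 2 were higher, with a median of −0.21. The probe sets of Ndufs8 disagreed, at −1.88 (AA685112_at), −1.45 (rc_AA851379_at) and 0.50 (rc_AA799479_g_at), and the first 2 were the dimmest of the 5. Ndufs7 was at 0.72 and Ndufv2 at −0.21, so the lower core values came mainly from dim probe sets of 1 gene. Between the ACEI arrays the members' median difference was 0.06 and between the ARB arrays −0.08, with 5 and 2 of 92 over 2-fold higher (3.87% and 6.66% of all tested) and 4 and 5 over 2-fold lower (14.0% and 8.50% of all tested). Each of these pairs is 1 array against 1 array, so no test was made.

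The direction was not shared by all members on control 2. Atp5po, a stalk subunit of ATP synthase, had 7403 on control 1 and 45826 on control 2 with probe set D13127_g_at, and 5791 and 8666 with D13127_at. Atp5if1 had 1894 and 10294 with D13122_f_at and 1537 and 9027 with rc_AA891873_f_at, but 252.5 and 273 with M35300_f_at. Atp5f1d, the delta subunit of the F1 head, went the other way in both of its probe sets, from 1733 to 741 and from 4424 to 1300. Ndufa4l2, a paralogue of Ndufa4, was lower on control 2 in all 5 of its probe sets, from 1914 to 504 at the least and from 916 to 14.6 at the most. All 5 are of the _f_at or _i_at kind, which can bind several related transcripts or hold fewer probes. Their assignment to Ndufa4l2 is therefore uncertain. The Atp5if1 probe sets are of the same kinds, with the same limit. Ndufa4, first described in complex I and since found in complex IV, had 3978 and 12095.

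No member was called in any of the 4 comparisons. RAS blockade, the mean of both drug groups, was compared with the control first. With limma's moderated test and Benjamini-Hochberg adjustment at 0.05, 0 of 92 members passed (0% of all 5244 tested probe sets did), and the smallest adjusted p of a member was 0.863. At an unadjusted p under 0.05, 2 members were higher (3.05% of all tested) and 0 lower (2.02% of all tested); one of the 2 is Ndufaf3 U95162_at, which passed the filter only through ARB. The median member difference was −0.19, with 58 of 92 below 0, beside a median of 0.13 over all tested probe sets, of which 40.4% were below 0. By complex the medians were −0.15 (complex I), −0.47 (complex II, 1 probe set), 0.06 (complex III), −0.19 (complex IV) and −0.31 (complex V). These values turned with the control arrays: the members' median was 0.21 without control 2 and −0.66 without control 1. The groups did not overlap for 6 members on the higher side (4.63% of all tested) and 1 on the lower side (3.72% of all tested).

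ACEI against control gave the same dependence. Of the 92 members 0 passed (0% of all tested), 1 was higher at an unadjusted p under 0.05 (1.20% of all tested) and 0 were lower (1.39% of all tested). The median was −0.20, beside −0.04 over all tested probe sets. On the first run day ACEI 1 exceeded control 1 for 75 of 92 members with a median of 0.26, and on the later day ACEI 2 was below control 2 for 63 of 92 with a median of −0.65. The 4 arrays thus gave opposite directions on the 2 days. Without control 2 the fitted median was 0.30, and without control 1 it was −0.64. Non-overlapping groups numbered 11 on the higher side (11.6% of all tested) and 3 on the lower side (11.9% of all tested).

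ARB against control shares the control arrays with both comparisons above. Again 0 members passed (0% of all tested); the smallest adjusted p of a member was 0.199, with limma. At an unadjusted p under 0.05, 4 members were higher (12.6% of all tested) and 2 were lower (4.69% of all tested); the 4 include Ndufab1 rc_AA891651_at and Ndufaf3 U95162_at, which passed the filter only through ARB. The median was −0.37 and 64 of 92 were below 0, beside 0.18 and 41.9% over all tested probe sets. The shift of the array as a whole depends on the scaling. After quantile normalization the members' median was −0.24 and the median of all tested −0.07, and after cyclic loess −0.19 and 0.00, so that the members stood 0.55 below the array as deposited, 0.17 below after quantile normalization and 0.19 below after cyclic loess. Without control 2 the members' median was 0.10 and that of all tested probe sets 0.17. The groups did not overlap for 14 members on the higher side (33.4% of all tested) and 25 on the lower side (16.8% of all tested).

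ARB against ACEI does not use the control arrays' means, but it shares both ARB arrays with ARB against control. These comparisons are therefore not independent. Members were again mostly lower with ARB: 60 of 92 were below 0, with a median of −0.28 beside 0.15 and 43.5% over all tested probe sets. The members stood 0.43 below the array's median as deposited and 0.11 or 0.10 below it after quantile or cyclic loess normalization. By complex, the median was −0.32 in complex I (32 of 43 lower), −1.09 for the 1 probe set of complex II, 0.34 in complex III (3 of 7 lower), −0.36 in complex IV (15 of 25 lower) and −0.17 in complex V (9 of 16 lower); the sign of complex V turned to 0.06 and 0.08 after quantile and cyclic loess normalization, and that of the other complexes did not. The groups did not overlap for 39 members on the lower side (25.3% of all tested) and 19 on the higher side (37.1% of all tested). Of the 92 members 0 passed the adjusted threshold (0% of all tested), and at an unadjusted p under 0.05, 5 were higher (15.6% of all tested) and 8 lower (6.71% of all tested). Of these, 2 of the 5 and 2 of the 8 passed the filter only through ARB or ACEI. On the later day alone the members' median was −0.27 with 61 of 92 below 0, and with run day as a block −0.50 with 68 of 92 below 0. Both ARB arrays were run on the later day, so the block took its day difference from the control and ACEI pairs. The control arrays thus enter that fit. The members' median difference was 0.77 between the control arrays and 0.06 between the ACEI arrays.

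The spread in that model includes the gap between the 2 control arrays. Fitted on the 4 treated arrays alone, with the same differences, 4 of 92 members passed at an adjusted p under 0.05 (4.35%, beside 5.82% of all tested). They were Ndufab1 rc_AA891651_at and Ndufaf3 U95162_at on the higher side and Ndufa4l2 AA686870_f_at and AA686870_i_at on the lower side. All 4 are among the 5 members that passed the filter only through their highest group, so these calls support no difference of the members.

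**Figure D2:**
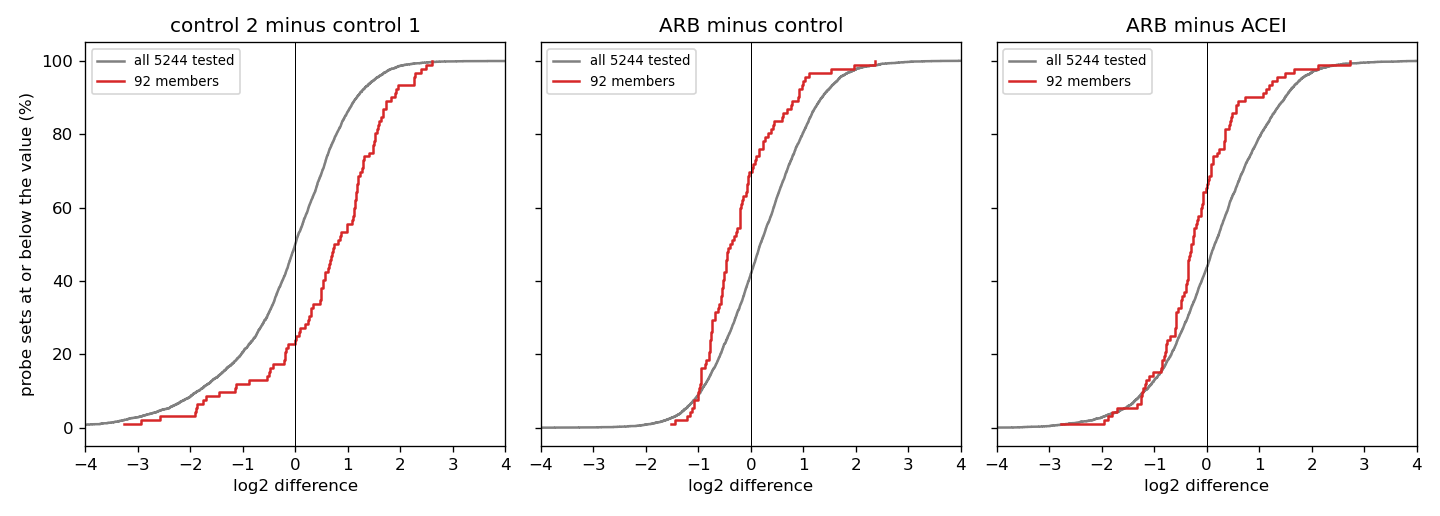
Cumulative share of probe sets (vertical axis, percent) at or below each log2 difference (horizontal axis) for the 92 members (red) and all 5244 tested probe sets (grey), for control 2 minus control 1, ARB minus control and ARB minus ACEI. Members lie to the right of the array for the 2 control arrays (median 0.77 against 0.00) and to the left of it for ARB minus control (−0.37 against 0.18) and ARB minus ACEI (−0.28 against 0.15).

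The position of the members between the drug groups varied with brightness and with the scaling. Split at the members' median brightness over all 6 arrays, 46 members were dimmer and 46 brighter, beside 4320 dimmer and 832 brighter tested probe sets that are not members; the dimmer probe sets were not matched to the members in brightness. Among the brighter, 67.4% of the members and 62.9% of the others were lower with ARB than with ACEI, with medians of −0.24 and −0.27; the medians were −0.03 and −0.04 after quantile normalization and 0.02 and −0.01 after cyclic loess. Among the dimmer, 63.0% of the members and 39.3% of the others were lower, with medians of −0.31 and 0.27; these were −0.42 and −0.05 after quantile normalization and −0.31 and −0.01 after cyclic loess. The brighter members thus lay close to other bright probe sets under each scaling, and the dimmer members lay below the median of other dim probe sets under each, by an amount that depended on it. The dimmer members include all tested Ndufa4l2 probe sets, whose assignment is uncertain. They also include the 5 members that passed the filter only through their highest group.

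The start sites of 46 of the 55 member genes were in the RefSeq promoter table (assembly GRCr8, 250 bases before to 50 after each start). Atp5pd, Cox4i2, Cox6a1, Cox6c, Cox6c-ps1, Cyc1, Ndufa8, Ndufb9 and Uqcr11 were not in it. Genes of this system are known targets of the transcription factors NRF-1 and of the ETS family (GABP), so their motifs were searched on both strands. The NRF-1 type motif GCGCANGCGC was in 6 of the 46 (13%, against 4.25% of 33469 promoters), the ETS motif CCGGAAG in 9 (19.6% against 8.75%), the YY1 type motif AAGATGGCG in 7 (15.2% against 1.73%) and the TATAAA box in 2 (4.35% against 14.2%). To show these motifs, 5 members described below were picked after their values were seen, 2 each for NRF-1 and ETS and 1 for the TATAAA box; Cox4i1 (ETS) and Ndufb8 (YY1) also held a match and are not shown. Each stretch is the 150 bases before the start, read 5′ to 3′ on the gene's strand, with matches on either strand in capitals.
Sdha (NRF-1 motif, chr1:30764403-30764552, + strand): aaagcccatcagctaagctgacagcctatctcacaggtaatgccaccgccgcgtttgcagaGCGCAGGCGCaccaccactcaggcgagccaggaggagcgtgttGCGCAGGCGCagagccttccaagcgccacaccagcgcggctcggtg
Atp5po (NRF-1 motif, chr11:44657484-44657633, − strand): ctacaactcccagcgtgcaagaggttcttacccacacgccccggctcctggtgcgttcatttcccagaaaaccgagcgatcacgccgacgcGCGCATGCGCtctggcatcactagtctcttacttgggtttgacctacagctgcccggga
Cox5b (ETS motif, chr9:46417687-46417836, + strand): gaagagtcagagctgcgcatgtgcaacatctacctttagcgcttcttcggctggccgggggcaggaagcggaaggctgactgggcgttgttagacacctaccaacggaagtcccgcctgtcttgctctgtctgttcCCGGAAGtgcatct
Cox8a (ETS motif, chr1:213833624-213833773, − strand): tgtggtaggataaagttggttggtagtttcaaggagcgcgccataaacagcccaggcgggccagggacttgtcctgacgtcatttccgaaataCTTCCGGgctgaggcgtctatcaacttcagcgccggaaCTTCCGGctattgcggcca
Cox8b (TATAAA box, chr1:205408274-205408423, − strand): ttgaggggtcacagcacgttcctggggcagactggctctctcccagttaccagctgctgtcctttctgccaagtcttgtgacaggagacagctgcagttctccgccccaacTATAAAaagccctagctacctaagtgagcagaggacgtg
Sdha and Cox8a each held 2 matches in the stretch and the other genes 1; the TATAAA box was found in Cox8b and Ndufs6 of the 46 members. A match describes letters and is not a site of binding.

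In complex II the catalytic flavoprotein subunit Sdha was the only gene measured. Its intensity was 2923 and 3546 in the control, 3429 and 3369 with ACEI and 1684 and 1425 with ARB. Both ARB arrays lay below the other 4, which did not separate by group. The difference was −1.01 ± 0.44 (SE) from the control (unadjusted p = 0.0493, adjusted p = 0.289) and −1.09 ± 0.44 from ACEI (unadjusted p = 0.0374, adjusted p = 0.198, limma). Without control 2 the first of these was −0.88, and after quantile and cyclic loess normalization it was −0.98 and −0.81. Sdha also acts in the citric acid cycle. The list of other citric acid cycle, pyruvate dehydrogenase and related genes had 15 of 22 probe sets lower with ARB than with ACEI (median −0.28). Over all tested probe sets 43.5% were lower (median 0.15).

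In complex IV the isoforms differed in direction between and within genes. Cox8b, a small subunit known from muscle, had 855 and 1273, 1598 and 993, and 348 and 305 with probe set U40836mRNA_s_at, so both ARB arrays lay below all others. The difference from ACEI was −1.70 ± 0.48 (adjusted p = 0.136) and that from the control −1.45 ± 0.48 (adjusted p = 0.233, limma). Its other probe set, X64827cds_s_at, had 392.5 and 2225, 995 and 627, and 771 and 68.7, and overlapped between all groups. Cox8a, the widespread isoform, did not follow: M28255_s_at had 18565 and 54775, 27528 and 24625, and 35306 and 41711, a difference from ACEI of 0.56 ± 0.58 (adjusted p = 0.605). The other Cox8a probe sets differed from ACEI by 0.12, 0.45 and −0.11. L48209_s_at had 10314 and 24415, 14471 and 15624, and 15565 and 17083. The probe set rc_AI102505_at had 10478 and 12938, 13852 and 12352, and 18487 and 17381, with ARB above every other array, and rc_AI102505_g_at had 18775 and 40743, 25654 and 26856, and 22492 and 26181.

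Cox5b, a zinc-binding nuclear subunit, had 1919 and 1302, 2694 and 2802, and 1122 and 1154 with D10952_i_at. ARB lay below both other groups and ACEI above them, at −1.21 ± 0.45 for ARB against ACEI (adjusted p = 0.175). D10952_i_at is of the _i_at kind, with the limit given above for Ndufa4l2. The second Cox5b probe set, rc_AI229620_s_at, had 4538 and 9802, 4999 and 6917, and 3712 and 3991, at −0.60 ± 0.52, also with ARB below both groups. Cox7a2l, known for its part in joining complexes III and IV into supercomplexes, had 3756 and 929, 2586 and 5738, and 1006 and 1084 with rc_AI172452_at, a difference of −1.80 ± 0.69 from ACEI (adjusted p = 0.182). Its second probe set, rc_AI232307_at, had 4126 and 6619, 4411 and 4152, and 3605 and 2871, at −0.40 ± 0.47. For Cox5b and Cox7a2l both probe sets thus placed ARB below ACEI, and the adjusted p did not pass for any of them.

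Cox6a1 gave opposite directions within 1 source sequence. Its probe set X72757_at had 288 and 182, 357 and 248, and 756 and 909, with ARB above every other array (1.24 ± 0.46 against ACEI, adjusted p = 0.174). X72757_g_at had 7853 and 9736, 9270.0 and 10922, and 5752 and 3448, with ARB below every other array (−1.16 ± 0.48, adjusted p = 0.202, limma). The third, rc_AI104520_s_at, had 11707 and 39288, 14076 and 16271, and 15130 and 16216, a difference of 0.05 ± 0.61. No single direction can be given for Cox6a1. Its muscle isoform Cox6a2 was higher with ARB in X12554cds_s_at, with 891 and 771, 554 and 378, and 1544 and 1757 (1.66 ± 0.45 against ACEI, unadjusted p = 0.00564, adjusted p = 0.133, limma), and with rc_AI171644_s_at it had 427 and 854, 722 and 214, and 1475 and 728 (1.19 ± 0.63 against ACEI), where ARB overlapped with the control. Its probe set X72758mRNA_at, below the filter, had 8.3 and 9.6, 14.1 and 6.8, and 54.5 and 47.1.

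The isoforms of subunit 4 were measured by 4 probe sets. Cox4i1 X54081mRNA_i_at had 2823 and 2087 in the control, 4700 and 6129 with ACEI and 5390.2 and 5261 with ARB. This probe set is of the _i_at kind, with the limit given above for Ndufa4l2. All 4 treated arrays lay above both controls, and RAS blockade differed by 1.11 ± 0.39 (unadjusted p = 0.0212, adjusted p = 0.863, limma). It was one of the 2 members with an unadjusted p under 0.05 in that comparison, and its difference was 1.32 without control 1 and 0.90 without control 2. The other Cox4i1 probe sets, J05425cds_s_at and rc_AA818226_s_at, differed by −0.03 ± 0.40 and −0.33 ± 0.55. The first had 14946 and 15756, 13949 and 20710.3, and 15024 and 11662, and the second 17767 and 67666, 22328 and 26631, and 29875 and 32495. Cox4i2 had 3109 and 3947, 2677 and 2463, and 3907 and 2803, a difference of −0.26 ± 0.40.

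In complex I the largest differences lay in dim probe sets. Ndufab1, the mitochondrial acyl carrier protein that is also a subunit of the complex, had 56.8 and 201, 47.7 and 99.0, and 1295 and 738 with rc_AA891651_at. Both ARB arrays lay above all others, by 2.73 against ACEI and 2.37 against the control. The other 4 arrays read near the offset of 90, and the probe set passed the filter only through ARB, so the size of the difference is uncertain. The related rc_AA891651_g_at had 2235 and 6963, 2819 and 3088, and 6646 and 2925, and overlapped between the groups, while AA799336_at had 598 and 859, 996 and 960, and 1549 and 1289. All 3 Ndufab1 probe sets were above 0 for ARB against ACEI (2.73, 0.57 and 0.49), the first of them with that limit.

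Ndufaf3, which helps to assemble complex I, had 170 and 147, 157 and 112, and 756 and 1028 with U95162_at, a difference of 2.12 from ACEI in a probe set that passed the filter only through ARB. With U95161_s_at it had 858 and 337, 999.9 and 859.5, and 655 and 911, and with rc_AI171562_at 1218 and 1759, 1039.7 and 793, and 1211 and 823. The latter 2 overlapped between ARB and ACEI, so no direction is shared by the probe sets of Ndufaf3. Ndufb8, an accessory subunit, had 1294 and 1293, 1719 and 558, and 2335 and 3029.8 with rc_AA851403_at (1.34 ± 0.57 against ACEI, adjusted p = 0.212), and its probe sets rc_AA851403_g_at and rc_AA964320_at differed by −0.19 and −0.57. The former had 2913 and 11643, 3818 and 5951, and 4340.2 and 4006, and the latter 4160 and 7601, 6276 and 8439, and 3961 and 5958. Another, rc_AA999168_at, was below the filter with 147 and 231, 252 and 120, and 133 and 573.

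Ndufa4l2 lay lower with ARB than with ACEI in all 5 probe sets, from −1.17 to −2.78. AA686870_f_at had 916 and 14.6, 887 and 1480.4, and 48.6 and 143.9, and AA686870_i_at had 696 and 122, 629 and 637, and 124 and 72.8; both passed the filter only through ACEI. AA684929_f_at had 1914 and 504, 1674 and 2064, and 1541 and 372. AA684960_f_at had 2110.4 and 278, 1934 and 2329.5, and 941 and 264, and AA685376_f_at had 1179 and 77, 811 and 1726, and 243 and 797. Control 2 and both ARB arrays were the 3 lowest arrays in all 5. Pecam1 was lowest on the same arrays, but not every endothelial marker was. Slco1a4 was highest on control 2, at 79016 against 17074 to 31108 on the other arrays. Whether these patterns are linked was not tested. Ndufa4 had 6335 and 5606 with ACEI and 5492 and 5089 with ARB, a difference of −0.17 ± 0.58. The 5 core subunit probe sets of complex I were all lower with ARB than with ACEI as deposited (median −0.38), but 4 of 5 after quantile (−0.18) or cyclic loess normalization (−0.12), where Ndufs7 turned from −0.06 to 0.28 and 0.22; the accessory subunits were lower in 20 of 29 (median −0.30).

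Complex III was the one complex whose median lay above 0 in both ARB comparisons (0.08 against the control, though −0.50 without control 1 and −0.21 without ARB 1, and 0.34 against ACEI). Uqcrfs1, the Rieske iron-sulfur protein, had 3064 and 1619, 3788 and 3553, and 4882 and 4438 with M24542cds_at. All 4 treated arrays lay above both controls (RAS blockade 0.86 ± 0.42, unadjusted p = 0.0721, adjusted p = 0.863, limma). This difference was 1.31 without control 1 and 0.42 without control 2. With M24542cds_g_at, from the same sequence, Uqcrfs1 had 7515 and 11809, 8100.1 and 9114, and 8117 and 8114, a difference of −0.17 ± 0.40. Its probe set rc_AI103911_at had 807 and 2470.1, 923 and 1072, and 2082 and 2326. Cyc1, cytochrome c1, had 3260.4 and 7559, 3569 and 3306, and 6422 and 4294, above ACEI on both ARB arrays (0.60 ± 0.54, adjusted p = 0.544). Uqcr11, a small subunit, lay below ACEI in both probe sets: rc_AA892462_at had 5745 and 4063, 5902 and 12976, and 4558 and 2603 (−1.32 ± 0.56, adjusted p = 0.212), and rc_AA926137_s_at had 5672 and 11278, 6917 and 7185, and 4546 and 4821 (−0.58 ± 0.50).

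In complex V no member had an unadjusted p under 0.05 in any comparison. Atp5f1b, the catalytic beta subunit, had 10874 and 17843, 12318 and 11086, and 13036 and 11750.2, a difference of 0.08 ± 0.47 between ARB and ACEI and of −0.21 ± 0.41 for RAS blockade. Atp5f1d had 1733 and 741, 2067 and 3294, and 1836 and 2261 with U00926_at, where all treated arrays lay above both controls (RAS blockade 0.96 ± 0.47, adjusted p = 0.863, limma). With U00926_g_at, at 4424 and 1300, 4276 and 5667, and 2917 and 3679, the difference was 0.71 ± 0.53 and the groups overlapped. Control 2 was the lowest array in both Atp5f1d probe sets. In U00926_g_at control 1 lay above every treated array except ACEI 2. Atp5po D13127_g_at had 10459 and 14309 with ACEI and 9348 and 9698 with ARB, and RAS blockade differed by −0.77 ± 0.67, or 0.54 without control 2. D13127_at had 8861 and 10699 with ACEI and 6419.7 and 4778 with ARB. Atp5if1 behaved alike in D13122_f_at (1644 and 3508, then 2558 and 2533) and rc_AA891873_f_at (1142 and 2793, then 2211 and 2034), at −0.82 ± 0.66 and −0.92 ± 0.69, or 0.37 and 0.33 without control 2. All Atp5if1 probe sets are of the _f_at or _i_at kind, with the limit given above for Ndufa4l2. The direction of these Atp5po and Atp5if1 probe sets against the control turned when control 2 was left out. Atp5if1 M35300_f_at had 317 and 98 with ACEI and 678 and 382 with ARB, and D13122_i_at, below the filter, had 19.8 and 252, 26.9 and 119, and 434 and 52.5.

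**Figure D3:**
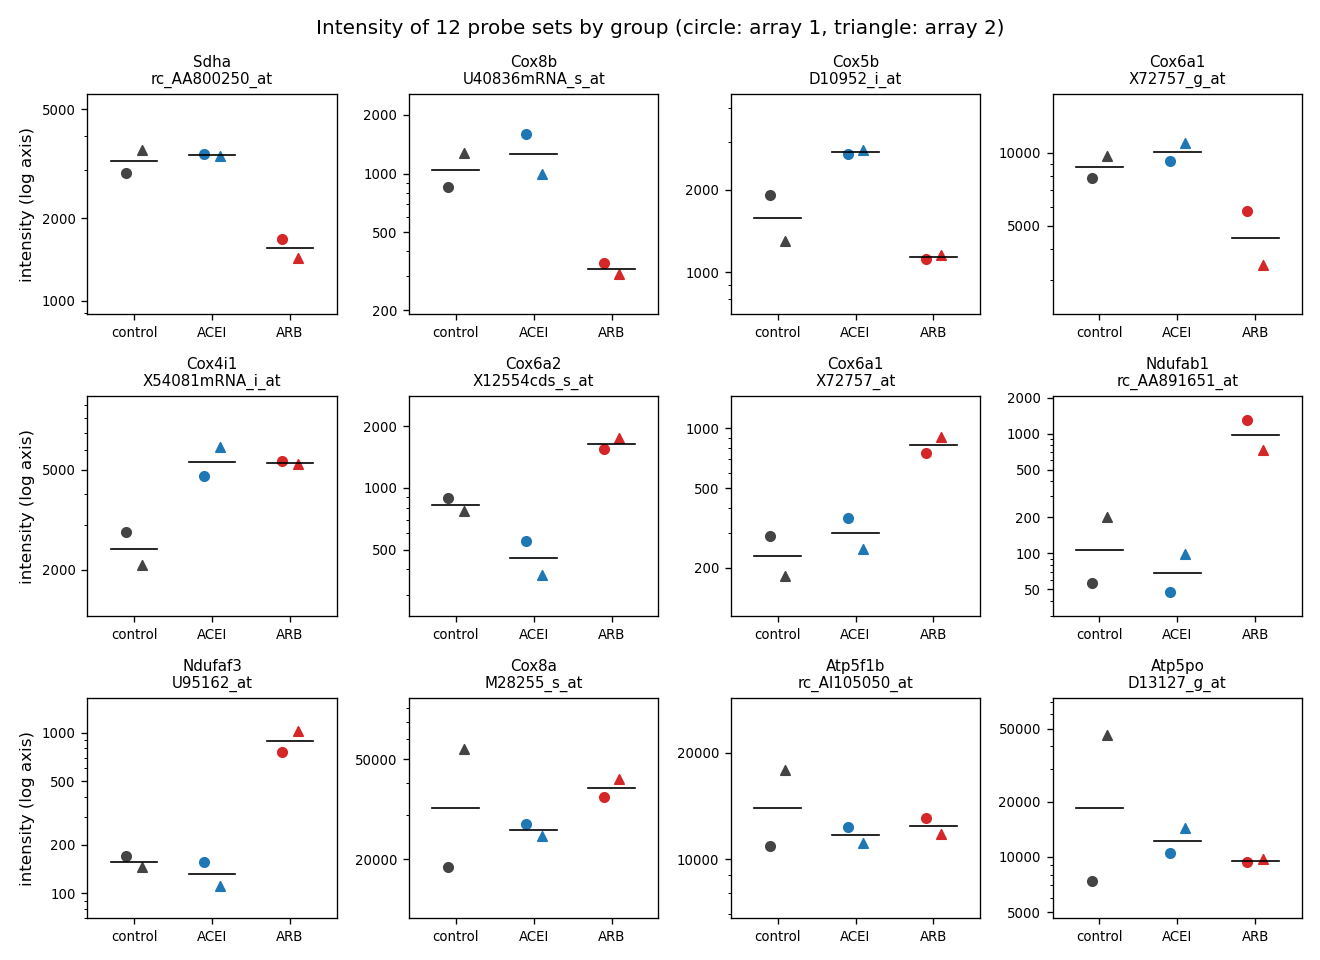
Deposited intensity (vertical axes, logarithmic, a separate range in each panel) of 12 member probe sets on the 2 control, 2 ACEI and 2 ARB arrays; circles are array 1, triangles array 2 and bars the geometric mean of the 2. Sdha and Cox8b are lower on both ARB arrays than on the other 4, Ndufab1 and Ndufaf3 are higher on both, and for Atp5po and Cox8a control 1 and control 2 lie on either side of the treated arrays.

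Probe sets of 1 gene often differed in sign. Of 26 genes with more than 1 tested probe set, 15 had probe sets of both signs for RAS blockade, 15 for ACEI against control, 11 for ARB against control and 10 for ARB against ACEI. Between the control arrays 10 of the 26 did.

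The subunits that mitochondrial DNA encodes are not members, and 3 of them were on the array. COX1 and COX3 form, with COX2, the catalytic core of complex IV. COX1 rc_AA893485_g_at had 19347 and 70113, 28376 and 26675, and 137180 and 144876, a difference of 1.93 ± 0.63 from the control (unadjusted p = 0.0138, adjusted p = 0.230) and 2.35 ± 0.63 from ACEI (unadjusted p = 0.00496, adjusted p = 0.133, limma). COX3 rc_AA945152_s_at had 22553 and 65869, 31035 and 30689, and 117285 and 120239 (1.62 ± 0.57 from the control, unadjusted p = 0.0209, adjusted p = 0.238). The second COX1 probe set, rc_AA850885_s_at, had 25715 and 35821, 36375 and 23861, and 40981 and 48471. COX2 rc_AI010292_s_at had 31775 and 36897, 30546 and 24259, and 51986 and 27969.

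All 4 of these probe sets were above 0 for ARB against the control (median 1.09) and against ACEI (median 1.27), where the median of the nuclear members was −0.37 and −0.28. No probe set passed the adjusted threshold, and the difference between the 2 genomes' transcripts was not tested. After quantile normalization COX2 was −0.34 against the control and COX1 rc_AA850885_s_at −0.16 against ACEI, and the medians of the 4 were 0.41 and 0.30; after cyclic loess they were 1.58 and 1.41. Ttr, the choroid plexus marker above, was highest on the same 2 arrays. On control 2 COX1 rc_AA893485_g_at and COX3 were likewise above control 1, as were most nuclear members.

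**Figure D4:**
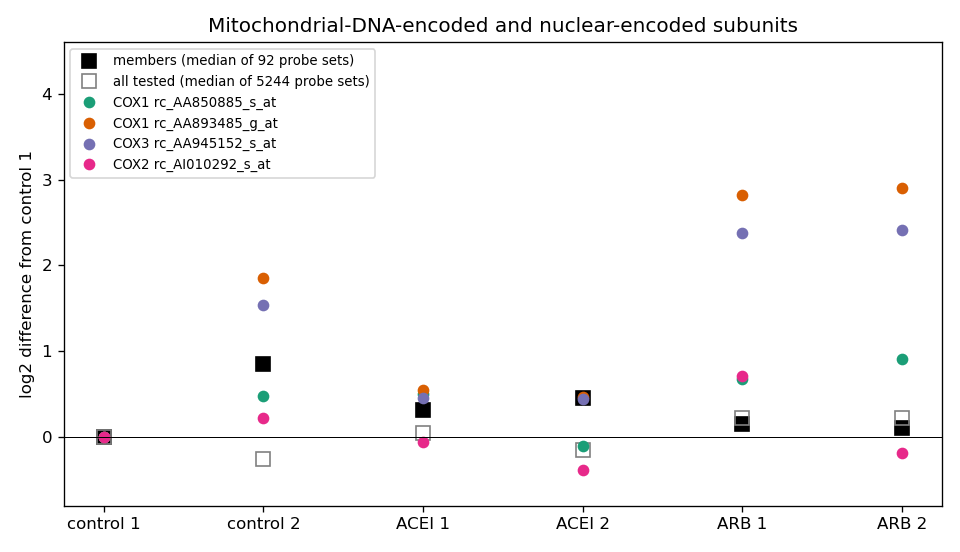
Log2 difference of each array from control 1 (vertical axis) for the 4 probe sets of COX1, COX2 and COX3 (circles), for the median log2 intensity of the 92 members (filled squares) and for that of all 5244 tested probe sets (open squares). COX1 rc_AA893485_g_at and COX3 are highest on both ARB arrays, where the members' median (11.35 and 11.30) lies near that of control 1 (11.20); on control 2 both these probe sets and the members' median (12.05) are above control 1.

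The remaining genes of mitochondrial energy metabolism were counted from lists of citric acid cycle, carrier and fatty acid oxidation genes. None passed the adjusted threshold. At an unadjusted p under 0.05 for ARB against ACEI, 0 of 22 citric acid cycle and pyruvate dehydrogenase probe sets were higher and 2 lower (median −0.28), 3 of 16 carrier and porin probe sets were higher and 2 lower (median −0.37), and 2 of 20 fatty acid oxidation probe sets were higher and 3 lower (median −0.18). Over all tested probe sets 15.6% were higher and 6.71% lower (median 0.15). Against the control these lists had medians of −0.19, 0.16 and −0.12 with ARB and 0.07, 0.28 and −0.01 with RAS blockade. Between the control arrays their medians were 0.21, 0.24 and 0.02, beside 0.77 for the members. Of 27 genes listed for assembly and biogenesis, 3 were on the array. One was Esrra, a nuclear receptor known to drive genes of oxidative phosphorylation, which had 575 and 891, 511 and 572, and 57.3 and 83.4 with rc_AA799412_g_at. Both ARB arrays lay below the other 4, at −2.34 ± 0.46 against the control (unadjusted p = 0.000786, adjusted p = 0.199) and −1.98 ± 0.46 against ACEI (adjusted p = 0.127, limma). Both ARB intensities of Esrra lay below the offset added to each intensity, so the size of the difference is uncertain. Its second probe set, rc_AA799412_at, was below the filter at 33.6 to 120.1. The other tested gene of this list went the other way for ARB against the control, at 0.21. Against ACEI that gene was also lower with ARB, at −0.44.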

How the data were processed

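RNA of brain capillaries was measured on 6 arrays, 2 per group, and groups were read from the labels' titles. The authors deposited 1 intensity per probe set and array on a linear scale with no detection calls; the summarizing software and any background correction are not given in the sources used here. Deposited run files hold other text settings (chip lot, fluidics protocol, run day) and, per the file headers, control 1 and ACEI 1 form the first run day. The 2% trimmed mean of each array lay between 996.7 and 1001, so no further scaling was applied in the main analysis.

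Probe sets were named from the array's annotation table where it gave 1 symbol; all 55 member symbols were in the RefSeq gene table (GRCr8) and 0 were updated. The 59 control probe sets were left out. From the deposited intensities log2(intensity + 90) was computed, the offset being the median of values above 0 (358.3) divided by 4 and rounded. The dimmest 40% by mean were not tested, which left 5244 of 8740. The model, run in R 4.3.3 with limma 3.58.1, had 1 mean per group over all 6 arrays (3 residual and 5.49 prior degrees of freedom), with two-sided p-values adjusted over all tested probe sets by Benjamini-Hochberg at 0.05. Errors are the model's SE, with 2 arrays per group. The fit was tested on simulated data. Python 3.11.15 with pandas 2.3.3 made the tables and matplotlib 3.10.9 the plots.

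Given array by array were, in each complex, the 3 members with the largest RAS blockade difference and the 2 brightest (1 in complex II), the 3 highest and 3 lowest for ARB against ACEI, isoform pairs, members at an unadjusted p under 0.05, and all probe sets of a gene so named. Ndufs1 and Cox6c-ps1 were added after their values were seen. Alternatives changed the offset, filter, normalization, blocks, groups in the fit and arrays. The members, gene lists and tests were chosen with earlier results of these data known. The correlations of same-numbered deviations between groups were 0.045, −0.015 and −0.0037, which does not settle whether the replicate numbers pair arrays. The replicate numbers coincided with the fluidics protocol, which differed between array 1 and array 2 of every group. In the control and ACEI groups they also coincided with run day and chip lot. A block on the replicate number is therefore also a block on that protocol and, in these groups, on day and lot.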

Additional observations from a re-analysis of the deposited data

How the results depend on the processing

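No member was called against the control or between the drugs in the main analysis, and counts of called probe sets on the whole array (0 in each comparison; 266, 136, 905 and 1171 at an unadjusted p under 0.05 for RAS blockade, ACEI and ARB against control and ARB against ACEI) moved as follows. With an offset equal to the median they were 3, 3, 4 and 4 in that order, and with the replicate number as a block 3, 2, 4 and 1. RAS blockade gave 1 called probe set after quantile and 1 after cyclic loess normalization. Leaving out 1 array at a time gave 0 to 60 for RAS blockade, with 60 without control 1, 2 without control 2; 0 to 261 for ACEI, with 261 without control 1; 0 to 46 for ARB, with 15 without control 1 and 46 without control 2; and 0 to 305 for ARB against ACEI, with 305 without either control array and 305 when only these groups were fitted. The group left with 1 array was then assumed to vary like the others. Without control 1, Ndufa4l2 AA686870_f_at was called for ACEI (3.57, adjusted p = 0.0221, limma), a probe set that passed the filter only through ACEI.

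The members' median log2 difference ranged, over single arrays left out, from −0.66 to 0.21 for RAS blockade, −0.64 to 0.30 for ACEI, −0.64 to 0.10 for ARB and −0.28 to −0.20 for ARB against ACEI, with the highest value of the first 3 without control 2 and the lowest without control 1. On the later run day alone it was −0.66 for RAS blockade and −0.65 for ACEI, and with run day as a block −0.28, −0.20, −0.54 and −0.50 in the 4 comparisons. With that block the control arrays also enter ARB against ACEI, through the day difference. The cause of these shifts was not tested. Of 49 named probe sets, 35, 30, 26 and 14 turned sign under some alternative in the 4 comparisons, 28, 22, 15 and 0 of them without control 2. The replicate block changed no member's call. Signal over background limits the dim members, for which no detection calls were used here.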
